A study of Mus musculus with 4 samples.

Results

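The genes that carry a cell from G2 through mitosis were followed in mouse prostate as a set of 44 genes, from the mitotic cyclins and kinases to the motors and scaffolds of the spindle. The members were taken by name, with the older names Cdc2a, Kntc2 and Cdca1 read as Cdk1, Ndc80 and Nuf2. No cut on a measured value was applied, but earlier results of these data were known when the list was chosen. The members have 73 probes among the 41174 probes of the array that are not controls. Of these, 46 probes for 37 genes were bright enough to be tested, among 24918 probes in all.

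Prostates of 60-day-old mice on a mixed C57BL/6, 129/SVJae and FVB background gave the RNA, from 4 animals in all, 2 per genotype. The 2 mice called mutant were Rb1R654W/F:Trp53F/F:PB-cre4, with one Rb1 allele coding for the R654W protein, which the series title calls deficient in E2F binding, and the other conditional. The 2 mice called null were Rb1F/F:Trp53F/F:PB-Cre4, with both Rb1 alleles conditional. All 4 mice shared the conditional Trp53 alleles and the Cre transgene, and each was hybridised in the red channel (Cy5) against the same pool of 3 wild-type mice in the green channel (Cy3), without a dye swap. The probasin promoter of PB-Cre4 drives Cre in prostate epithelium, so the stromal, vascular and immune cells of the tissue keep their alleles. The design asks how prostate with a partly functional retinoblastoma protein compares with prostate that has lost it. Values are log2 ratios of the mouse over the pool, so that 0 is the level of the pool, and a gene is given by its brightest tested probe unless several are named.

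Progression through mitosis rests on a wave of transcripts that starts in late S phase and peaks in G2. Cyclin A and cyclin B activate the kinase Cdk1, Plk1 and the Aurora kinases build the spindle, the spindle checkpoint holds the anaphase-promoting complex until all chromosomes are attached, and that complex with its activator Cdc20 then destroys cyclin B and securin. In quiescent cells the DREAM complex, which contains MuvB, an E2F and a p107 or p130 pocket protein, keeps these genes off, and in cycling cells B-Myb and FoxM1 replace the repressors on MuvB. MuvB reaches the promoters through an element called CHR, often near CCAAT boxes bound by NF-Y, whereas the genes of G1/S and DNA replication carry E2F sites, through which the retinoblastoma protein itself acts. Adult prostate epithelium divides rarely.

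The promoters of the members can be set against these layouts, and 6 stretches are printed so that G2/M genes named in the results can be read beside a gene of DNA replication with which they are compared later. RefSeq promoters of build GRCm38.p6, covering 250 bases before to 50 after a gene start, were at hand for 38 of the 44 members (40 promoters). Each line gives the 150 bases just before the start, 5′ to 3′ along the gene. Capitals mark the CHR letters (TTTGAA), the CCAAT box (CCAAT) and an E2F site (TTTGGCGC, TTTCGCGC or TTTCCCGC), each on either strand.
Mki67: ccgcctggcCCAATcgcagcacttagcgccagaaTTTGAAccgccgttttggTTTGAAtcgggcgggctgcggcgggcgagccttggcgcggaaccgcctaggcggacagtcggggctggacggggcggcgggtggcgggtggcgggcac
Cdc20: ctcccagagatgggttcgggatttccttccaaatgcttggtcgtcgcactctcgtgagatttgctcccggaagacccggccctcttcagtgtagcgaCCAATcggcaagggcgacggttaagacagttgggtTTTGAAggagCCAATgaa
Cdk1: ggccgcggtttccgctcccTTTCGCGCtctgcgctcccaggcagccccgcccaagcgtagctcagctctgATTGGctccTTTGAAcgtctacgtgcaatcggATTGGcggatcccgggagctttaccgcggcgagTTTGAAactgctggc
Ccnb1: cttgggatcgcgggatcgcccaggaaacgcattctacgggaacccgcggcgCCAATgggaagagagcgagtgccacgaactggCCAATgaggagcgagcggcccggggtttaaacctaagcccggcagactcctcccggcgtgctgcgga
Cks2: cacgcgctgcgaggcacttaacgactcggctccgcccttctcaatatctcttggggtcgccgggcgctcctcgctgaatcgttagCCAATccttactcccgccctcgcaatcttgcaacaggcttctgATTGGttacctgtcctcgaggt
Mcm6: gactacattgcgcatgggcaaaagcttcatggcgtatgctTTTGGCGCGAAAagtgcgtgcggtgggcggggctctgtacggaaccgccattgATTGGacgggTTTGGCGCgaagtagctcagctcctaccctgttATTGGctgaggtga
These stretches lie at chr7:135716380-135716529 (minus strand) for Mki67, chr4:118437344-118437493 (minus) for Cdc20, chr10:69352913-69353062 (minus) for Cdk1, chr13:100786487-100786636 (minus) for Ccnb1, chr13:51645082-51645231 (plus) for Cks2 and chr1:128359706-128359855 (minus) for Mcm6, a subunit of the replicative helicase. Mki67 and Cdk1 each hold 2 CHR matches in the printed stretch and Cdc20 holds 1, with its first base 18 bases before the start. The stretch of Ccnb1 has 2 CCAAT boxes and that of Cks2 has 2, with no TTTGAA in either. Other spellings of the CHR element were not searched, so a promoter without a match here may still hold one. Mcm6 shows E2F matches, of which 2 overlap on opposite strands. Cdk1 also holds the E2F letters TTTCGCGC.

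Over the full 300 bases, the CHR letters occurred in 28 of the 40 member promoters (70.0%), against 17.9% of all 32851 promoters in the table and 8 of 50 promoters of G1/S and DNA replication genes (16%). A CCAAT box occurred in 30 of 40 (75%), against 37.4% of all promoters and 56.0% of the G1/S promoters. The E2F letters occurred in 1 member promoter of 40 (2.5%), near the 1.84% of all promoters, and in 17 of 50 G1/S promoters (34.0%). In 60 promoters of related mitosis genes, a list described later, they occurred in 8 (13.3%). There the CHR letters occurred in 30 and a CCAAT box in 42. The E2F share of the chosen members thus does not stand for mitosis genes at large. A match describes the letters and is not evidence of binding. The 21 tested members with a CHR match had a median of -0.12 over the 4 mice (from -0.22 to 0.12), and the 11 without one a median of -0.04 (from -0.39 to 0.44).

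The samples set the limits of what follows. The numbers of probes with red signal well above background were 26168 and 25549 for mutant mouse 1 and 2, then 22183 and 25047 for null mouse 1 and 2 (63.6%, 62.1%, 53.9% and 60.8% of all probes). Null mouse 1 stood apart, with a median background-subtracted red signal of 19.3 against 51.3 to 84.4 in the others, and with heat shock genes at a median log2 ratio of 3.66 against 0.19 to 0.37. Rb1 itself was at -0.65 and -0.24 in the mutant pair and at 0.09 and -0.87 in the null pair; whether its probe lies in the deleted part was not analysed, so these values do not check the labels. The luminal markers of prostate were well above background on all 4 arrays in both channels for 7 of 8 listed, probasin among them. Other cell types differed between the mice: the 6 myeloid markers had medians of 0.85 (mutant mouse 1), 0.78 (mutant mouse 2), -0.20 (null mouse 1) and 1.41 (null mouse 2), and the 5 smooth muscle markers of -0.17, -0.50, 0.22 and -0.08. The 4 tested seminal vesicle markers lay between -0.61 and -4.64 in the median of each mouse. The 7 tested lymphocyte markers had medians from -0.07 to 0.07 and the 4 basal markers from -0.37 to -0.05 outside null mouse 1, where the basal median was 1.06. The part of these cell types in the values of the mitotic genes was not tested, and in bulk tissue fewer dividing cells and less RNA per cell cannot be told apart.

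Many members were near the limit of detection. Mutant mouse 1 and mutant mouse 2 each gave signal well above background on 47 of the 73 member probes (64.4%), null mouse 1 on 34 (46.6%) and null mouse 2 on 44 (60.3%). Over all probes the shares were 63.6%, 62.1%, 53.9% and 60.8%, so null mouse 1 was lowest there too. Null mouse 2 had 11 such member probes that null mouse 1 lacked, and null mouse 1 had 1 that null mouse 2 lacked. The share of all probes that differed in this way was not counted. In the pool channel the number was 42 to 44 on each array, so wild-type prostate gave signal for about as many. On no array was either channel well above background for 22 probes (30.1%), close to the 32.8% over all probes. No probe of Bub1, Cdc25c, Hmmr, Kif11, Kif2c, Ndc80 or Ttk could be tested: these are checkpoint kinases, the phosphatase that switches on Cdk1, spindle motors and kinetochore or spindle proteins. For Bub1, 1 mouse array and 1 pool array had signal.

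**Figure D1:**
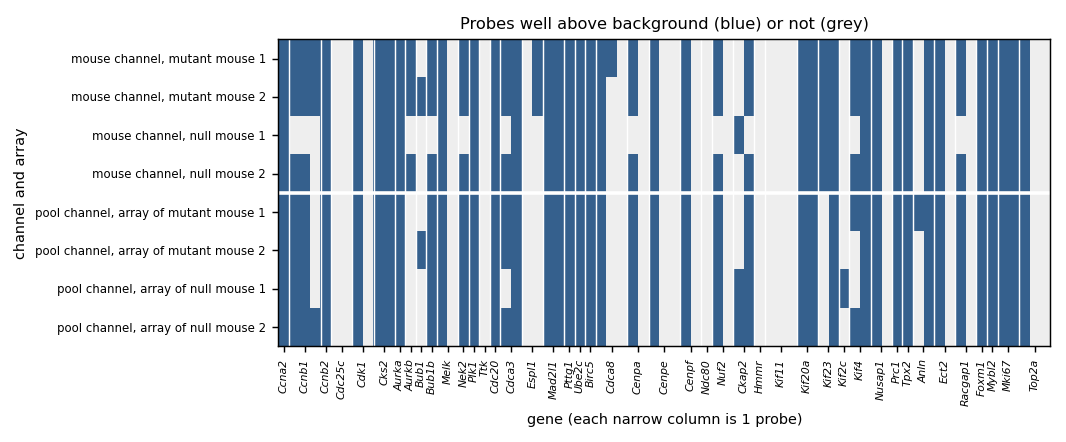
Each narrow column is 1 of the 73 probes, grouped by gene and ordered by role, and each row is the mouse or pool channel of 1 array; blue means well above background. Null mouse 1 has 34 blue probes in the mouse channel against 44 to 47 in the other mice.

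No member probe passed between the genotypes at an adjusted p under 0.05 in limma with Benjamini-Hochberg adjustment over all 24914 probes tested, where 0% of all probes passed. At an unadjusted p under 0.05, 0 of the 46 member probes passed, against 2.19% of all probes. The smallest adjusted p among them was 0.985. In direction, 31 of 46 member probes were higher in the mutant mean (67.4%), against 53.6% of all probes, and in 12 of 46 both mutant mice lay above both null mice (26.1%), against 16.8% of all probes. Both mutant mice lay below both null mice for 1 member probe, of Cks2 (2.17%), against 13.6%. All 46 probes had red signal well above background in both mutant mice. The probes of Aurkb and Espl1, the dimmest of Ccnb1 and the dimmer ones of Cdca3 and Kif4 were tested only for that reason. Each of them was higher in the mutant mean, a side that the filter favours. The counts were not repeated without them. Without null mouse 1, both mutant mice lay above null mouse 2 for 19 of 46 probes (41.3%, against 32.2% of all) and below it for 6 (13%, against 30.2%). The median difference over the 37 genes, mutant minus null, was 0.08, beside 0.01 over all gene names. Median centring in place of loess turned the order of these medians, to 0.24 for the members and 0.42 for all gene names. With it, 37 of 46 member probes were higher in the mutant mean, against 79.3% of all probes, and both mutant mice lay above both null mice for 21, against 42.3%, so that these counts were near those of all probes. The Cks2 probe then overlapped between the genotypes.

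Against the pool, the mitotic genes of all 4 mice had medians just below the wild-type level, under loess; under median centring those of both mutant mice and null mouse 2 turned above 0. Their median was -0.04 in mutant mouse 1, -0.08 in mutant mouse 2, -0.19 in null mouse 1 and -0.10 in null mouse 2, while the medians over all gene names were 0.03, 0.02, -0.01 and 0.03. Under median centring the members had medians of 0.16, 0.09, -0.23 and 0.05 in the same order, and all tested probes 0.62, 0.56, -0.04 and 0.41. All 4 mice were below 0 for 14 of 46 member probes (30.4%), against 14.9% of all probes, and above 0 for 4 (8.7%), against 16.7%. Under median centring the numbers were 13 below, against 5.23% of all probes, and 5 above, against 31.7%. In the 3 mice other than null mouse 1, all were below 0 for 17 member probes (37%, against 22.2%) and above 0 for 8 (17.4%, against 28.1%). No member probe passed against the pool: the smallest adjusted p in limma was 0.178 over the 4 mice together, where 0.012% of all probes passed, 0.453 in mutant mice and 0.474 in null mice, where 0% passed. At an unadjusted p under 0.05, 7 member probes passed over the 4 mice (15.2%), against 17.6% of all, and 3 in mutant and 3 in null mice (6.52% each), against 10.6% and 10.2%. The pool counts as 1 control sample, so the variation among wild-type animals is missing from these tests, and without a dye swap a gene-specific dye effect cannot be told apart from a difference to the pool.

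**Figure D2:**
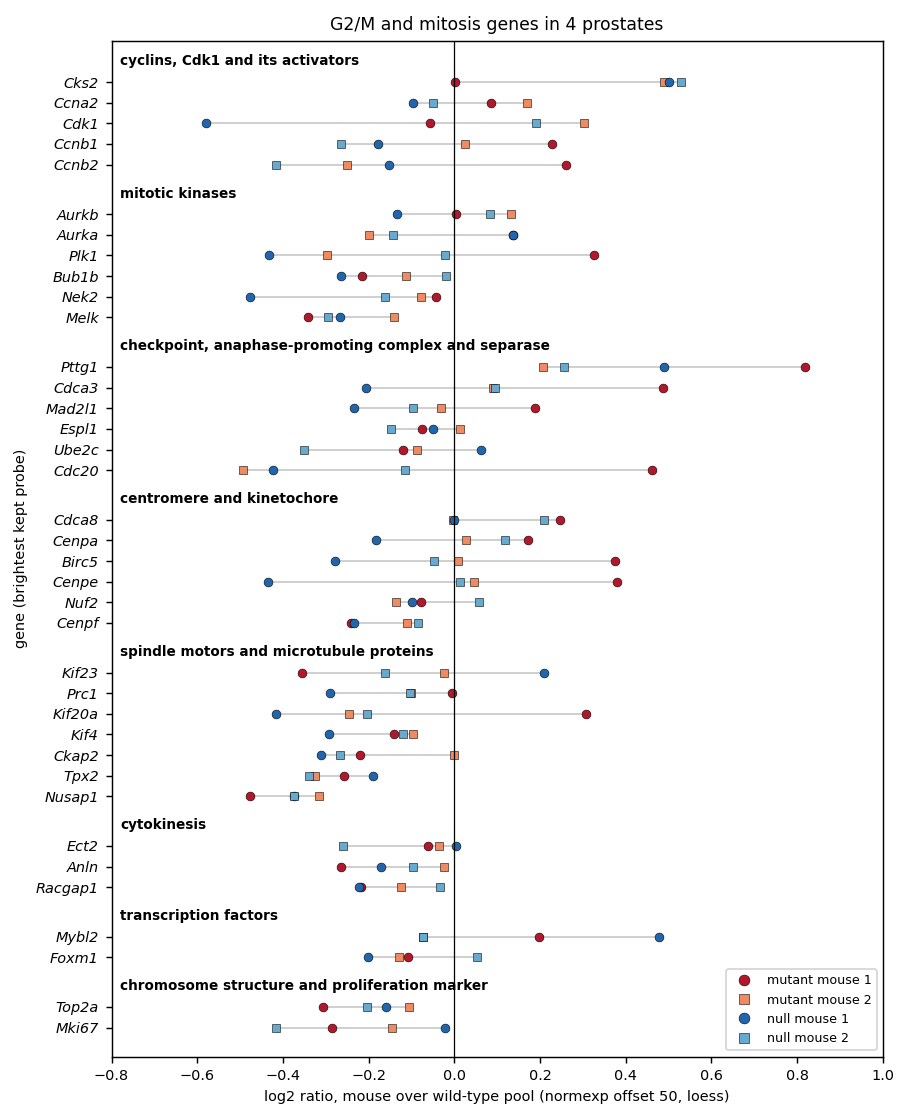
Each row is 1 of the 37 tested genes, grouped by role, and each point the log2 ratio of 1 mouse over the wild-type pool; grey bars join the lowest and highest mouse. Ccnb1 shows both mutant mice above both null mice, Nusap1 and Tpx2 lie left of 0 in every mouse, and Cdc20 and Plk1 spread widest within the mutant genotype.

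The values of single genes that follow are those after loess. Under median centring the mutant minus null difference changed sign for 12 of the 37 genes, so a side of 0 or an overlap stated for a gene holds for loess and is given for centring only where named.

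Among the cyclins, Ccnb1, cyclin B1, had all its probes in the same order between the genotypes. Its brightest probe (chr13:97885282-97885341, minus strand, in the mm7 build of the array files) was at 0.23 and 0.02 in the mutant pair and at -0.18 and -0.27 in the null pair. The second was at 0.13 and 0.08 against -0.22 and -0.13, and the third at 0.02 and -0.01 against -0.14 and -0.28. Null mouse 1 was not well above background on any of the 3 probes, so its values there have no firm size. On the third, null mouse 2 was not well above background either, and the pool was so on 1 array only. All 3 probes thus placed both mutant mice above both null mice (under median centring 2 of them did). Probes of a gene read the same RNA and are not replicates. The dimmest was tested only because both mutant mice had signal, so the filter favours this order for it. The difference of the brightest was 0.35 (SE 0.19; limma adjusted p = 0.985), with an SD of 0.14 in mutant and 0.06 in null mice (n = 2 each). Without null mouse 1 the difference was 0.39. The authors' deposited table has 3 entries for this gene, with linear mean ratios to the pool of 0.36, 0.47 and 0.59 in null mice and 0.82, 1.06 and 0.95 in mutant mice, and larger-over-smaller ratios of 2.31, 2.27 and 1.60. The value of 2.31 was the largest among the 44 member entries there, of which 33 were higher in mutant mice and 11 lower. The share of all entries higher in mutant mice was not counted, so these counts have no background. Among the lower entries, ratios reached 2.19 for an entry of Cenpe, 2.09 for Bub1 and 1.93 for Anln.

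Ccna2, cyclin A2, was at 0.09 and 0.17 in the mutant pair and at -0.10 and -0.05 in the null pair, a difference of 0.20 (SE 0.18; limma adjusted p = 0.985) without overlap. Ccnb2, cyclin B2, overlapped (not so under median centring), at 0.26 and -0.25 in mutant and -0.15 and -0.42 in null mice. Cdk1, the kinase both cyclin classes activate, was at -0.06 and 0.30 against -0.58 and 0.19, so that its low value belonged to null mouse 1 alone. Cks2, a small Cdk-binding subunit, had the probe furthest above the pool among the members. This probe at chr13:50684531-50684590 (plus strand, mm7) was at 0.85, 0.68, 0.66 and 0.74 (mutant mouse 1, mutant mouse 2, null mouse 1, null mouse 2, an order kept from here on), a mean of 0.73 ± 0.09 (SD, n = 4; limma adjusted p = 0.178). Its brightest probe, at chr13:50684621-50684680, was at 0.0021 in mutant mouse 1 and at 0.49 to 0.53 in the other 3, so the probes of this gene differed most in mutant mouse 1. The mutant minus null difference of this brightest probe was -0.27, and 0.30 under median centring.

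Of the mitotic kinases, 6 were tested, and the null mean was below the pool for all 6 of them and the mean of the 4 mice for 5, beside 47.4% and 44.8% of all probes. Under median centring the numbers were 5 and 4, beside 31.1% and 19.7%, and without background correction 4 and 5, beside 47.7% and 45.7%. The null means of Aurka and Aurkb were close to 0, at -0.003 and -0.02. Between the genotypes the kinases lay on both sides. Plk1, which acts in mitotic entry and spindle assembly, was at 0.33 and -0.30 in the mutant pair and at -0.43 and -0.02 in the null pair, so its mutant mice differed by more than the genotypes did. Aurka, the Aurora kinase of the spindle poles, was at 0.14 and -0.20 against 0.14 and -0.14, and above 0 in all 4 mice under median centring. Aurkb, the Aurora kinase of the chromosomal passenger complex, was at 0.0038 and 0.13 against -0.13 and 0.08. The pool was not well above background for Aurkb on any array, and under median centring both mutant mice were below it, at -0.26 and -0.17. Melk, a kinase abundant in proliferating cells, was below the pool in all 4 mice, at -0.34, -0.14, -0.27 and -0.30, except that mutant mouse 2 stood at 0.06 under median centring. Nek2, a centrosomal kinase, was below 0 in all 4 mice and did not overlap under loess, at -0.04 and -0.08 in mutant and -0.48 and -0.16 in null mice. The checkpoint kinase Bub1b was at -0.21 and -0.11 in the mutant and -0.26 and -0.02 in the null pair. Null mouse 1 was not well above background for Aurkb, Nek2 or Bub1b.

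Of the genes that time anaphase, Pttg1, which encodes securin, stood above the pool in every mouse, at 0.82 and 0.21 in the mutant and 0.49 and 0.25 in the null pair, a mean of 0.44 ± 0.28 (SD, n = 4; limma adjusted p = 0.234). Cdc20, the activator of the anaphase-promoting complex, had the widest spread within the mutant genotype, at 0.46 and -0.49, with the null mice at -0.42 and -0.11. Mad2l1, a spindle checkpoint protein, was higher in both mutant mice on both probes, at 0.19 and -0.03 against -0.23 and -0.10 on the brighter and at 0.25 and 0.10 against -0.21 and -0.07 on the other. The means of these Mad2l1 probes over the 4 mice lay on opposite sides of 0, at -0.04 and 0.02. The probes of Cdca3, a trigger of mitotic entry, also differed in sign, with 0.49, 0.09, -0.21 and 0.09 on the brighter and -0.09, -0.15, -0.16 and -0.10 on the dimmer. For Espl1, separase, neither null mouse was well above background, the genotypes overlapped, and the mutant minus null difference of 0.07 turned to -0.12 under median centring.

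At the centromere and kinetochore, Cenpe, a kinetochore motor, gave the largest non-overlapping difference among the members, 0.42 (SE 0.25; limma adjusted p = 0.985), with 0.38 and 0.05 in the mutant and -0.44 and 0.01 in the null pair. Without null mouse 1 the difference was 0.20. Birc5, survivin, a subunit of the passenger complex, was at 0.38 and 0.0090 against -0.28 and -0.05, a difference of 0.36 (SE 0.22; limma adjusted p = 0.985) that became 0.24 without null mouse 1. In both genes the high value was that of mutant mouse 1 and the low one that of null mouse 1. The same pair of mice marked the ends of the range for 9 of the 37 genes. Over probes, mutant mouse 1 was highest for 22 of 46 (47.8%), against 28.6% of all probes, and null mouse 1 lowest for 23 (50%), against 37.6%.

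The spindle proteins were the lowest of the groups with over 2 tested genes, with 7 genes and a median of -0.16 over the 4 mice. Nusap1, which bundles spindle microtubules, was at -0.48, -0.32, -0.37 and -0.37, a mean of -0.39 ± 0.07 (SD, n = 4; limma adjusted p = 0.203). Tpx2, the activator of Aurora A on the spindle, was at -0.26, -0.32, -0.19 and -0.34, a mean of -0.28 ± 0.07 (limma adjusted p = 0.247). The difference between the genotypes was smaller than its error, at -0.02 for Nusap1 (SE 0.18) and -0.03 for Tpx2 (SE 0.18). Kif20a, a motor of the central spindle, had mutant mouse 1 as the one mouse above 0, like Cdc20 and Plk1 under loess, with 0.31 and -0.25 in the mutant and -0.42 and -0.20 in the null pair. Under median centring Kif20a and Cdc20 each had 3 mice above 0 and Plk1 had 2. Kif23, another motor of the central spindle, had probes of opposite sign: -0.35, -0.02, 0.21 and -0.16 on the brighter and 0.16, 0.05, 0.14 and 0.07 on the dimmer, for which the pool was not above background. Under median centring the mean over the 4 mice was below 0 on both, at -0.19 and -0.08.

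The proliferation marker Mki67 was below the pool in every mouse under loess, and above it on the brighter probe in 3 of 4 mice under median centring. The brighter probe (chr7:132094802-132094861, minus strand, mm7) was at -0.29, -0.15, -0.02 and -0.42 and the dimmer (chr7:132099223-132099282) at -0.37, -0.26, -0.21 and -0.38 in the same order of mice. Their means over the 4 mice were -0.22 ± 0.17 and -0.31 ± 0.08 (SD, n = 4; limma adjusted p = 0.359 and 0.232). The genotypes overlapped on both under loess, with mutant minus null at 0.0036 (SE 0.22) and -0.02 (SE 0.18). Under median centring in place of loess, which moves the median of all genes to 0.43, the brighter probe turned to a mean of 0.23 and the dimmer stayed at -0.15, and both mutant mice lay above both null mice, by 0.53 and 0.22. Top2a, the topoisomerase that untangles mitotic chromosomes, was at -0.31, -0.11, -0.16 and -0.20, with mutant mouse 2 at 0.10 under median centring. The regulators of the wave lay on both sides of 0: Foxm1 was at -0.11 and -0.13 in mutant and -0.20 and 0.05 in null mice, and Mybl2, which encodes B-Myb, at 0.20 and -0.07 against 0.48 and -0.07, a mutant minus null difference of -0.14 that turned to 0.30 under median centring. The cytokinesis genes Anln, Ect2 and Racgap1 had a median of -0.14 over the 4 mice, and Anln and Racgap1 were below 0 in all of them, with Anln at 0.10 in mutant mouse 2 under median centring.

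The main processing step adds an offset of 50 to the intensities, and the ratios of these dim probes were smaller with it. With an offset of 1 and nothing else changed, the median absolute mean log2 ratio over the 46 member probes was 0.22 instead of 0.12, with Nusap1 at -0.66 and Tpx2 at -0.53. With the scanner's processed signals, which differ in background correction and dye normalisation as well as in the offset, it was 0.31. Nusap1 then averaged -0.92, Tpx2 -0.77 and Mki67 -0.35 and -0.64 on its probes, while Pttg1 averaged 0.46 and the Cks2 probes 0.37 and 0.82. The mutant minus null difference of Ccnb1 came to 1.14, 0.68 and 1.19 on the same probes in the order given above, and Cdk1 in null mouse 1 to -1.57. Again 0 member probes passed the threshold in limma.

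**Figure D3:**
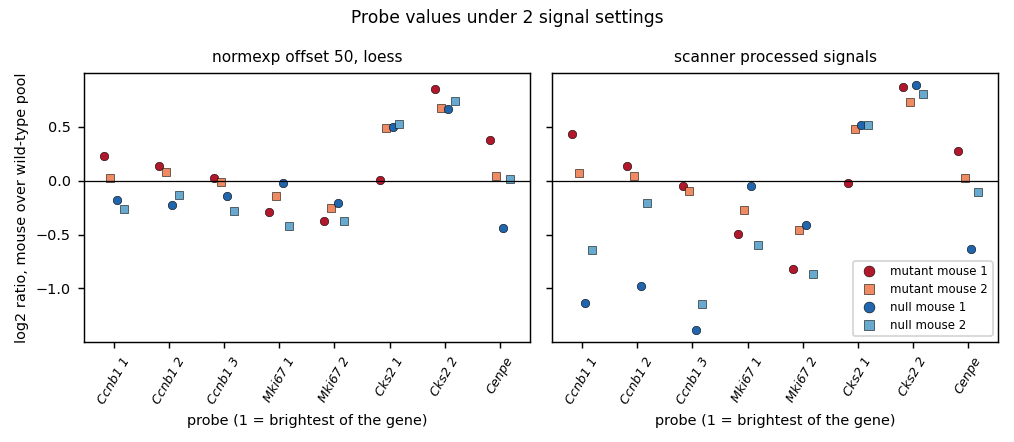
Points are the log2 ratios of the 4 mice over the wild-type pool for the tested probes of 4 genes, on the left after normexp with an offset of 50 and loess, on the right from the scanner's processed signals. The Ccnb1 probes keep both mutant mice above both null mice in both panels, and the processed signals stretch the Ccnb1 differences to between 0.68 and 1.19.

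Other genes of the cell cycle were set beside the members as lists for description. A further 71 genes of mitosis, of which 54 were tested, had medians of -0.01, -0.02, -0.15 and -0.04 in that order of mice. In all 4 mice 14 of the 54 were below 0 and 3 above, beside 14.1% and 17.3% of all gene names, and the largest mean ratios were those of Psrc1 (-0.83) and Ncaph (-0.64), a spindle protein and a condensin subunit. Of these 54 genes 0 passed in limma in any of the comparisons, and over the 4 mice 3 higher and 6 lower reached an unadjusted p under 0.05, beside 9.97% and 8.14% of all gene names. The 18 tested genes of the MuvB, B-Myb and E2F regulators had medians of 0.24, 0.19, 0.06 and 0.22. Among these E2f3 was at 1.07, 0.74, 1.52 and 0.68, and E2f2 at 1.15, 0.63, 0.22 and 0.75.

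The 51 tested genes of G1/S and DNA replication lay higher than the members in every mouse, with medians of 0.35, 0.38, -0.07 and 0.43. The G1/S median exceeded the member median by 0.39 and 0.46 in the mutant mice and by 0.11 and 0.53 in the null pair. Of the 51, 18 were above 0 in all 4 mice and 1 below, whereas of the 37 members 2 were above (5.41%) and 12 below (32.4%), beside 17.3% and 14.1% of all gene names. Mcm6 was at 1.30, 1.73, 0.41 and 1.70 and Mcm3, another helicase subunit, at 1.43, 1.37, 0.20 and 1.63. Of the 51 genes 0 passed in limma against the pool, and over the 4 mice 21 reached an unadjusted p under 0.05 in the higher direction, compared with 2 of the 37 members (5.41%) and 9.97% of all gene names. The G1/S genes were also brighter, with a median log2 intensity of 8.92 against 6.99. With the processed signals the gap between the medians was 0.49, 0.65, 0.44 and 0.81 in the same order of mice. In null mouse 1, which had the smallest gap, myeloid markers were also lowest, and their part was not tested.

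**Figure D4:**
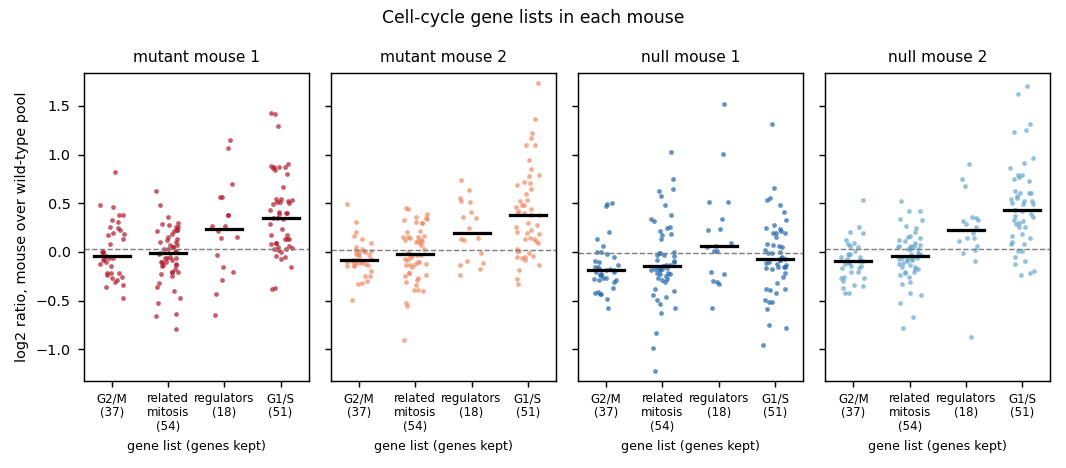
Each panel is 1 mouse and each point the log2 ratio of 1 tested gene over the wild-type pool, for the 37 G2/M and mitosis genes, 54 related mitosis genes, 18 regulators and 51 G1/S genes; black bars are list medians and the dashed line the median of all gene names. The G1/S median lies above the G2/M median in all 4 panels, by 0.11 in null mouse 1 and by 0.39 to 0.53 in the others.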

How the data were processed

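Agilent mouse arrays (design 14868) carried 1 mouse (red) and the wild-type pool (green) each. The authors deposited scanner files with spot brightness as intensity and a flag, used here as a score of 0 or 1, for signals well above background, per the file headers. Agilent Feature Extraction is given as 9.5.1.1 per the file headers and as 8.5 per the submitters' processing notes. A second deposited table holds, for each genotype, the mean linear ratio to the pool; no ratio among its 26174 rows is below 1.13, and 44 rows match members by accession.

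Mean signals were corrected with normexp (offset 50) and loess in limma 3.58.1 under R 4.3.3, with control spots at weight 0 and outlier-flagged spots left out. Spots of a probe were averaged. To be tested, a probe needed red signal flagged in both mice of a genotype, or green signal flagged on all 4 arrays. One term per genotype was fitted over all such probes with lmFit and eBayes, with Benjamini-Hochberg adjustment and a threshold of 0.05. The fit was tested on simulated data.

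All 4 arrays shared 1 slide and 1 scan, with the mice of a genotype side by side, so place on the slide and genotype cannot be told apart. The labels name 2 mice per genotype. An exact permutation of 2 against 2 mice cannot go below p = 0.333, and a sign-flip of 4 mice not below 0.125. Array number limits the precision. The members, lists and tests were chosen with earlier results of these data known. Genes named are 14 mitotic standards, the members furthest from the pool on one side in all 4 mice (up to 5 each way), the non-overlapping members with the highest (3) and lowest (3) difference, those whose probes differ in sign and those with no tested probe. Nek2, Bub1b, Espl1, Kif20a, Anln, Ect2 and Racgap1 were added after their values were seen. The accession of 58 of the 73 member probes names the same gene in RefSeq (GRCm38.p6) and 15 found no match. The exon position of the probes was not analysed.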

Additional observations from a re-analysis of the deposited data

Results flagged for a closer look

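Ccna2, Ccnb1 and Birc5 had, after loess, both mutant mice above the wild-type pool and both null mice below it on their brightest probe. They were found by searching the named genes for such a split in either direction, and the share of all probes with it was not counted. For Ccnb1, null mouse 1 was not well above background. Under median centring null mouse 2 was above the pool for Birc5, at 0.45, and for Ccna2, at 0.05. For Birc5 mutant mouse 2 was also below it, at -0.02, with processed signals and with a normexp offset of 1. The differences, mutant minus null, were 0.20, 0.35 and 0.36 on the log2 scale. The fit tested these differences and the limma adjusted p was 0.985 for each.

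Mutant mouse 1 lay far from the others on the brightest probe of Cks2, at 0.0021 against 0.49 to 0.53, with a gap of 0.924 of the range. Dixon's critical value, which this gap exceeds, is passed by chance in about 1 of 20 groups. The gap was found by searching the named genes, so 1 such case can arise by chance alone. The values compared also join mice of both genotypes, which are not a single group. The test therefore cannot decide whether mutant mouse 1 is an outlier for Cks2.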

How the results depend on the processing

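The count of member probes past the threshold was 0 in every comparison and setting run, leaving out each mouse included, except over the 4 mice under median centring, where 3 passed. They include Cks2 (limma adjusted p = 0.0367) and Pttg1 (0.0366). Of all 24914 probes tested in that setting, 4263 were called, 4196 of them higher, beside these 3 of the 46 member probes. Centring moved the median of all genes to 0.43 there, and to 0.68 in mutant mice. With median centring the member medians were 0.240 for mutant minus null, below the 0.42 of all gene names, 0.0711 for mutant and -0.00837 for all 4 mice against the pool. With processed signals they were -0.157 for mutant, -0.376 for null and -0.273 for all 4 mice against the pool. With a normexp offset of 1, added after the data were seen, they were 0.164 for mutant minus null and -0.0817, -0.306 and -0.196 against the pool in the same order. Without background correction the mutant median was -0.0595. Leaving out 1 mouse gave -0.0784 to -0.0310 for mutant against the pool (-0.0784 without mutant mouse 1), -0.189 to -0.0965 for null (-0.0965 without null mouse 1), -0.111 to -0.0866 for all 4 mice and 0.0538 to 0.101 for mutant minus null. The member median lay below the median of all probes in 24 of 24 values, 4 mice under each of 6 signal settings, from -0.50 to -0.06 apart. The G1/S median lay above the member median in 24 of 24. The number of probes with both mutant mice above both null mice was 12 in the main setting. It was 14 with processed signals and without background correction, and 13 with scaling between arrays and with an offset of 1. In these settings 15.9% to 17% of all probes did so. Under median centring it was 21, where 42.3% of all probes did so. All 3 Ccnb1 probes did so except 1 under median centring. With the replicate number as a block, 0 members passed and the medians stayed at 0.08, -0.03, -0.16 and -0.10. Same-numbered mice did not deviate together across probes (r = 0.0035). With 1 deviation per genotype, this r cannot exclude that the numbers pair the mice. No member was called, so none lost a call; the sign of the mutant minus null difference changed for 12 of 37 genes under median centring, 9 with processed signals, 6 with an offset of 1, 5 without background correction and 1 with scaling between arrays. Dim probes bound the precision, and a ratio near background has no firm size.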
